A study of Mus musculus with 8 samples.

Results

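The 25 Mb of mouse chromosome 4 that begin at 120 Mb (mm10) were described through the regions that the study listed there. The members were all regions of the deposited list whose start lay in that stretch. There were 4445 of them among 220894 regions in the whole series. The stretch had been chosen because its scores were low, so the scores below are a description and carry no test. The list came from capture-enriched bisulfite sequencing of 8 mouse cell lines grown in DMEM with 10% FBS. Of these, 4 were brain tumour lines with mutant IDH, from N::TVA mice whose genotype included Cdkn2a lox/lox and Atrx lox/lox. Another 2 were brain tumour lines with wild-type IDH1, labelled as RAS gliomas, from N::TVA mice with Cdkn2a lox/lox. The last 2 were immortalized astrocyte lines with wild-type IDH1 from mice with the same genotype as those of the mutant lines, labelled PDGFA and IWT-PDGFA, and the second of these expressed exogenous wild-type IDH1. All lines shared a mixed C57Bl/6, 129 and FVB/n background and came from mice with floxed Cdkn2a.

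Each region has 1 position and 1 score for all lines together. The sources used here do not say what the score measures. There was no value of a single line to analyse, so methylation levels and the contrast of mutant with wild-type IDH were not analysed here, depth is unknown, and the values below come without a replicate error.

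DNA methylation in mammals is placed mainly on cytosines that precede a guanine (CpG). Most CpG-rich promoters are kept free of it, whereas gene bodies and intergenic DNA are mostly methylated, and mutant IDH1 makes 2-hydroxyglutarate, which inhibits the TET enzymes that start its removal. The distal part of mouse chromosome 4 is largely conserved with the short arm of human chromosome 1, which is lost together with the long arm of chromosome 19 in IDH mutant oligodendroglioma. The stretch holds 398 protein-coding genes, among them the chromatin remodelling subunit gene Arid1a, the histone demethylase gene Kdm1a, the transcription factor genes Runx3, Pax7 and Id3, and several Eph receptor genes.

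The sequences below show DNA under the lowest and the highest scoring members at annotated transcript starts. They are the 250 bases before such a start in 6 genes, taken from RefSeq (GRCm38.p6), printed 5′ to 3′ on the gene's strand, with every CG in capitals. With predicted genes left out, 33 members of 400 to 800 bp contained such a stretch whole. The 3 with the lowest and the 3 with the highest score among these are shown. The first 3 lay in the lowest scoring members, and their starts are internal ones, 2674, 6650 and 781 bases inside the gene.
Lrrc38 chr4:143349500-143349749 +: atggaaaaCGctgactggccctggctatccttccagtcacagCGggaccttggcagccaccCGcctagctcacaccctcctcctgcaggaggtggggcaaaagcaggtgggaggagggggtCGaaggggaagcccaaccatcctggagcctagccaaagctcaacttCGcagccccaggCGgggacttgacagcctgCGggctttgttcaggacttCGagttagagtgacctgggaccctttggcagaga
Pafah2 chr4:134402720-134402969 +: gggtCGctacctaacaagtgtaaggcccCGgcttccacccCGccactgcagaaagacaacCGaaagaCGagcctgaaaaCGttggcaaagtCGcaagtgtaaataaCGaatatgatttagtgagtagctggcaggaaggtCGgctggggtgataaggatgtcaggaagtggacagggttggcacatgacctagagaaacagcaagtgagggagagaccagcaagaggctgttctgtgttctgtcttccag
Htr6 chr4:139074790-139075039 -: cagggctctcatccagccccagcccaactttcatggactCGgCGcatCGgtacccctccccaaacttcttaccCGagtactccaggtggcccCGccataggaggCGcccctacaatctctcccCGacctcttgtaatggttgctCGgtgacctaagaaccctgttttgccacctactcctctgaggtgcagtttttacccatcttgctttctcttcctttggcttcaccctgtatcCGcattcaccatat
The other 3 lay in the highest scoring members, and their starts are the outer ends of the genes. The 2 sets thus differ in kind of position as well as in score.
Pdik1l chr4:134287847-134288096 -: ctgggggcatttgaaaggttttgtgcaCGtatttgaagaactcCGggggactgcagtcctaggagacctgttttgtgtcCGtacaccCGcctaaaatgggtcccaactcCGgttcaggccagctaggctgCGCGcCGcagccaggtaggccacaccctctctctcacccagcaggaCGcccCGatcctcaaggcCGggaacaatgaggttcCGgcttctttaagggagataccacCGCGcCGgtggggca
Zbtb8a chr4:129378029-129378278 -: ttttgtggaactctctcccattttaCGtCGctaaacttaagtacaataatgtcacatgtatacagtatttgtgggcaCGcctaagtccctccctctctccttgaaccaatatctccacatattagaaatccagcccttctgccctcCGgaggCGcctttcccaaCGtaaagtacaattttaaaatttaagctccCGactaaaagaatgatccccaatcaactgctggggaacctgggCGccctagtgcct
Syf2 chr4:134930730-134930979 +: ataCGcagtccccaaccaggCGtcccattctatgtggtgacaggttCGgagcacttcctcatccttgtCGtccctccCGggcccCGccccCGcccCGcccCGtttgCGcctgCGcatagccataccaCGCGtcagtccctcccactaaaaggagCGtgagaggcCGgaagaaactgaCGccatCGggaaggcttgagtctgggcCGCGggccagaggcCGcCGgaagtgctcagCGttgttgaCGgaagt

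The low-scoring members were a region of 450 bp with a score of 166 at Lrrc38, which encodes an auxiliary subunit of potassium channels, one of 510 bp with 200 at Pafah2, a phospholipase gene, and one of 600 bp with 206 at Htr6, a serotonin receptor gene. Their upstream sequences held 8, 9 and 9 CG. The high-scoring members were a region of 690 bp with 840 at Pdik1l, a kinase gene, one of 790 bp with 936 at Zbtb8a, a zinc finger gene, and one of 740 bp with 992 at Syf2, a gene of the splicing machinery. These sequences held 15, 8 and 23 CG. The choice was by score alone. The high-scoring members are wider than the low-scoring ones and lay at percentiles of 62.1, 66.5 and 72.6 for their width. Zbtb8a, in a high-scoring member, had no more CG than Lrrc38 in the lowest, and over the 33 members the number of CG and the score had a Spearman rho of -0.02, across regions of 1 pooled list that also differ in width.

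Score rose with width everywhere in the list, so the stretch was compared with other DNA at matched width. For the 1716 members of 400 to 800 bp the median was 482, with quartiles of 348 and 663, and scores from 136 to 2237. The 87498 regions of that width on the rest of the autosomes had a median of 638, with quartiles of 446 and 885. The ratio of the medians was 0.755, and 72.5% of these members (95% Wilson interval 70.3 to 74.6, which covers counting error only) lay below the median of the rest. A score of 1000 or more was reached by 6.82% of members of this width and by 17.5% of the rest.

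**Figure D1:**
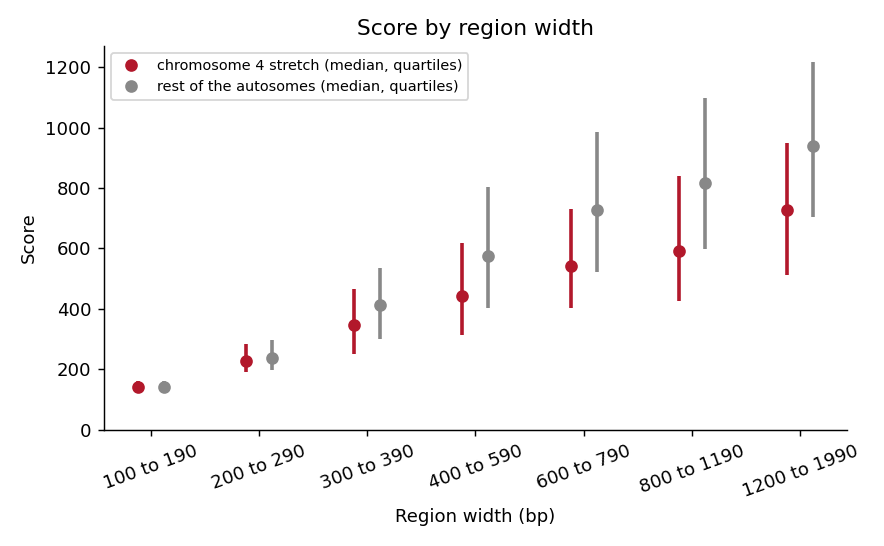
Score of regions (vertical axis) by region width in bp (horizontal axis), in the chromosome 4 stretch and on the rest of the autosomes; points are medians and lines run between quartiles. The 2 medians were 142 and 141 at 100 to 190 bp and 542 and 726 at 600 to 790 bp.

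The difference was small among narrow members and larger among wide ones. Members of 100 to 190 bp had a median of 142 against 141 on the rest of the autosomes, and those of 200 to 290 bp 228 against 237. From 400 to 590 bp the medians were 442 and 576, and from 800 to 1190 bp 591 and 817, the class with the lowest ratio (0.723). No region of the list scores under 100, and narrow regions lie close to that floor. As a second measure, each score was ranked among all autosomal regions within 50 bp of its width. The median percentile of the 4445 members was 36.9, with quartiles of 15.7 and 60.9, against 51.3 on the rest of the autosomes. A percentile under 25 was held by 1639 members (36.9%), beside 23.1% of all autosomal regions, and a percentile over 75 by 520 (11.7%), beside 20.9% of all autosomal regions. Since the stretch was chosen on this score, nothing is read from those shares.

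Gene-dense DNA had lower scores in general, and the stretch was therefore set beside stretches with a similar number of genes. Of 86 autosomal stretches of 25 Mb, 14 others had a number of protein-coding genes within 25% of its 398, from 308 to 482. Their median scores at 400 to 800 bp ran from 531 to 661. The 482 of the chromosome 4 stretch lay below all 14, and below all 85 others. The 86 leave out chromosome ends too short for a full stretch, and chromosome 4 from 148 Mb to its end had a lower median, 440. The regions of the 14 stretches pooled had a median of 585, a ratio of 0.824. Of the members, 65.6% (Wilson interval 63.3 to 67.8, counting error only) lay below that median. The stretch was chosen on this score and neighbouring regions are not independent, so the interval is no support. The nearest in score were the stretches that begin at 150 Mb on chromosome 2, with 345 genes and a median of 531, at 25 Mb on chromosome 7, with 520 genes and 538, and at 100 Mb on chromosome 5, with 332 genes and 545. Across the 86 stretches the log2 median score had a Pearson r of -0.69 with the number of genes and of -0.70 with the number of regions per Mb. These are descriptions across stretches that share the same libraries.

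**Figure D2:**
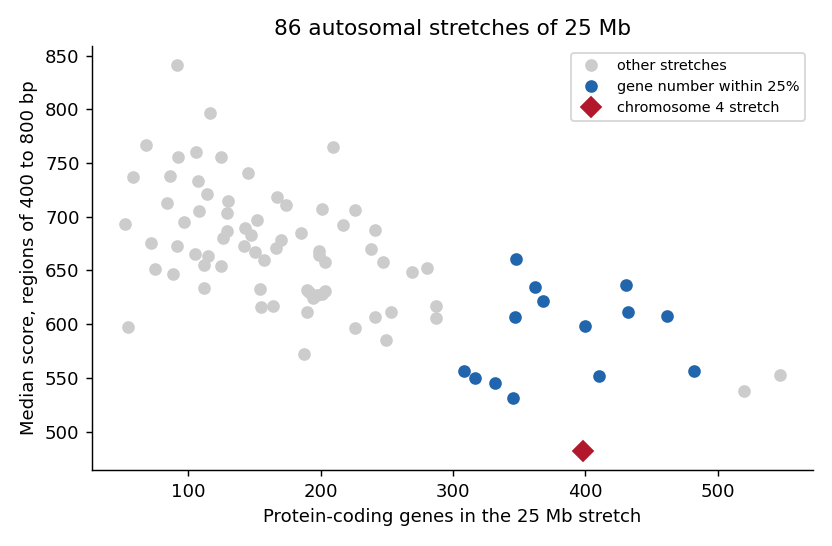
Median score of regions of 400 to 800 bp (vertical axis) against the number of protein-coding genes (horizontal axis) in 86 autosomal stretches of 25 Mb, each point 1 stretch. The chromosome 4 stretch, at 398 genes and a score of 482, lies below the 14 stretches with a similar number of genes, which run from 531 to 661.

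The number of regions was at the end of its range. The choice of the stretch did not use this number. Across the 86 stretches, however, regions per Mb went with the log2 median score (Pearson r -0.70), so it is not independent of that choice. The stretch held 178 regions per Mb, the highest of the 86 stretches, against a median of 122 and a highest value of 172 among the 14 stretches of similar gene number. The 86 leave out chromosome ends too short for a full stretch. Within such an end, the 5 Mb of chromosome 4 from 150 Mb held 935 regions. The segments of 5 Mb in the stretch held 612, 869, 1083, 1132 and 749. The number in the stretch came to 11.2 regions per gene, with a range of 3.99 to 13.0 in the 14. Members were narrower than in most, with a median width of 410 bp against 400 to 490 bp, and the median gap between neighbours was 2076 bp against 2051 to 4546 bp. Together the members covered 8.71% of the stretch, with 11 of the 14 covering less. When stretches were matched on regions per Mb instead of genes, 10 were comparable and their median scores ran from 531 to 635, again all above 482.

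Within the stretch, scores fell from its beginning towards 140 Mb. In segments of 5 Mb the medians were 537 from 120 Mb, 498.5 in the next, 474 from 130 Mb, 452 from 135 Mb and 467 from 140 Mb. Among autosomal segments of 5 Mb with a gene number within 25%, 7 of 88 had a lower median than the first segment, 1 of 63 than the second, and 0 of 48, 0 of 54 and 0 of 63 than the last 3. Of 25 steps of 1 Mb, 23 held at least 20 regions of 400 to 800 bp, and 22 of these had a median under 638. The step from 121 Mb, left out with 18 such regions, had a median of 643. The exception among the 23 was the step from 123 Mb, at 687, which holds Macf1 (chr4:123349633-123687802), a large cytoskeletal linker gene. Macf1 had 63 regions, the most of any gene in the stretch, and their median percentile was 49.97. The lowest steps were those from 140 Mb, at 395.5, from 139 Mb, at 404.5, and from 135 Mb, at 409. Over the 23 steps the median score and the number of genes had a Pearson r of 0.03, as a description of neighbouring DNA.

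Neither border of the stretch was a clean step. The last region below it, chr4:119996281-119996830, scored 911 and the first in it, chr4:120002961-120003420, scored 451, whereas the 5 Mb below it had a median of 517 at 400 to 800 bp. The last region in it, chr4:144999271-145000690, scored 652 and the first above it, chr4:145017361-145018220, scored 528. The 3 Mb above the stretch hold a zinc finger gene cluster and had a median of 1257. Above them, to the end of the chromosome, the median was 440, lower than in the stretch. More than 15 Mb below the stretch the median of chromosome 4 was 665.

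**Figure D3:**
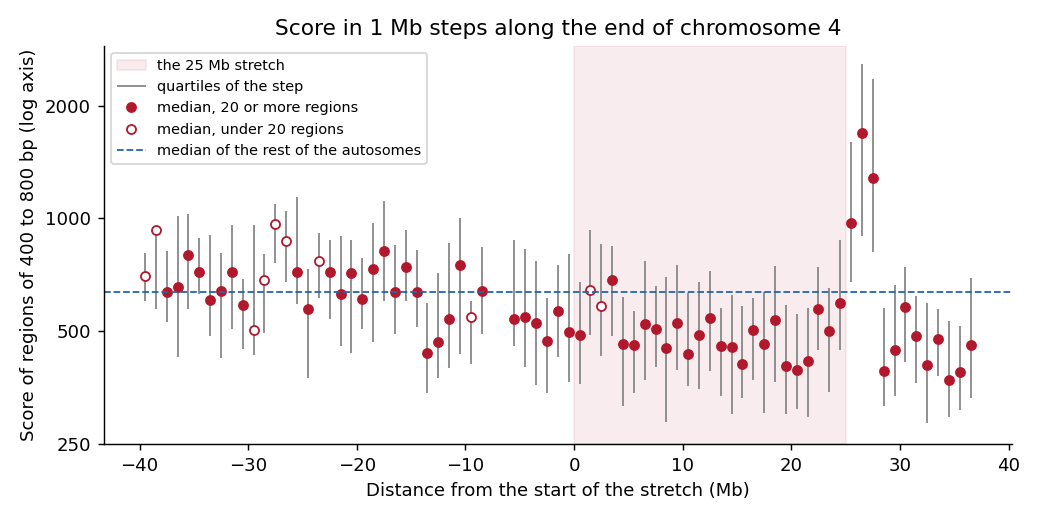
Score of regions of 400 to 800 bp (vertical log axis) in 1 Mb steps along chromosome 4, by distance from the start of the stretch (horizontal axis, Mb); points are medians, open where a step held under 20 regions, lines run between quartiles, and the dashed line is the median of the rest of the autosomes (638). Of the 23 filled points in the shaded stretch 22 lie under the dashed line, and the 3 steps beyond it have medians from 972 to 1687.

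The low score was present in each kind of DNA examined, and least at gene ends. At 400 to 800 bp, members within 1000 bp of a protein-coding gene end had a median of 471 against 548 elsewhere on the autosomes (ratio 0.859). In gene bodies the medians were 477.5 and 637 (0.7496), and between genes 490 and 668 (0.734). Against the 14 stretches of similar gene number the ratios were 0.897, 0.828 and 0.787. On the rest of the autosomes the median thus rose by 120 from gene ends to intergenic DNA and in the stretch by 19. Members more than 100000 bp from any gene end, 110 of them, had a median of 504.5 against 707 elsewhere (0.714). Members at gene ends made up 17.4% of all members, those in gene bodies 43.4% and those between genes 39.2%, each within the range of the 14 stretches (14.9 to 25.1%, 36.1 to 50.2% and 31.5 to 41.6%).

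Promoter windows of the stretch were rich in CpG, and among the richest of them the share touched by a region was lower than on the rest of the autosomes, a difference for which no test was made. RefSeq windows of 300 bases at annotated transcript starts of protein-coding genes numbered 429 in the stretch, of which 202 lay at the outer start of the gene, and they had a median of 17 CpG, against 13 on the rest of the autosomes. Of these, 253 (59.0%, Wilson interval 54.3 to 63.5) were touched by a region, against 59.7% elsewhere. Windows with 15 to 24 CpG were touched in 90 of 105 cases (85.7%, 77.8 to 91.1), against 90.5% elsewhere. Windows with 25 or more CpG were touched in 75 of 132 (56.8%, 48.3 to 65.0), against 68.7% elsewhere and 69.8% (67.2 to 72.3) in the 14 stretches, of which 1 had a lower share and which ran from 48.3 to 79.5%. Neighbouring windows can share a region, and the intervals cover counting error only.

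The scores at promoters differed less than those elsewhere. The 86 members of 400 to 800 bp at such a window had a median of 458, against 505 on the rest of the autosomes. By CpG number the medians in the stretch and in the 14 stretches were 397 and 482 at 5 to 14 CpG, 455 and 481 at 15 to 24, and 493 and 455 at 25 or more. On the rest of the autosomes they were 497, 471 and 511. In the last class, with 25 members, the stretch thus lay above the 14 stretches and below the rest of the autosomes by score. By median percentile for width, over regions of any width, it lay below both in every class. At 25 or more CpG the percentiles were 33.5 in the stretch, 35.1 in the 14 and 37.3 on the rest of the autosomes. At 15 to 24 CpG they were 22.8, 31.5 and 33.6. With 0 to 4 CpG only 4 members could be compared, with a median of 425.5 against 624.5.

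**Figure D4:**
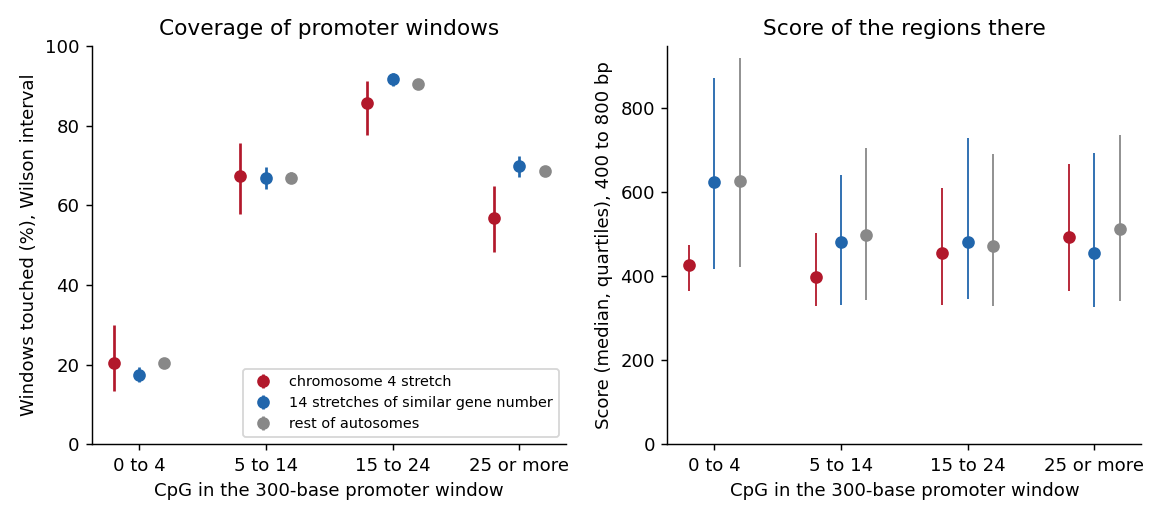
Left, share of RefSeq promoter windows touched by a region (percent, with 95% Wilson intervals); right, score of the regions of 400 to 800 bp there (medians, lines between quartiles); both by the number of CpG in the window (horizontal axis), for the chromosome 4 stretch, the 14 stretches of similar gene number and the rest of the autosomes. The share at 25 or more CpG was 56.8% in the stretch and 69.8% in the 14.

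Across genes, low scores were common and not uniform. Of the 398 protein-coding genes lying in the stretch, 359 (90.2%) had a region in the gene or within 1000 bp of it, against 85.4% of 20263 other autosomal genes, with a median of 5 regions per gene against 4. Among the 298 genes with at least 3 regions, the median percentile of a gene's regions had itself a median of 34.1, with quartiles of 21.8 and 47.0, against 48.0 for the 13592 such genes elsewhere. It lay below 50 in 238 of the 298 (79.9%), beside 53.8% elsewhere.

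The 12 genes with the lowest median percentiles ran from 3.77 to 8.87. Zbtb17 (chr4:141444673-141467937) encodes a zinc finger transcription factor that binds MYC. Its 4 regions scored 298, 252, 292 and 242, and the first, 260 bp wide, was the only one above the 5th percentile for its width. Zdhhc18 (chr4:133604554-133633490), a palmitoyltransferase gene, had 9 regions with scores from 162 to 450, and every one lay under the 15th percentile, so the whole gene was low rather than 1 end of it. Epha8 (chr4:136929419-136956859), an ephrin receptor gene of the developing brain, had 6 regions with scores of 608, 260, 150, 401, 775 and 276. The 2 higher ones lay within 1000 bp of its 2 ends, and so did those of 260 and 276. Pou3f1, a POU factor gene of neural progenitors and Schwann cells, had 5 regions of which none reached 400 bp, with scores from 107 to 208. The others were Eva1b, the receptor gene Gpr3, Fam43b, the cartilage collagen gene Col9a2, Cd164l2, the fatty acid binding protein gene Fabp3, the oligosaccharyltransferase subunit gene Ddost and Marcksl1.

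The 12 genes with the highest median percentiles ran from 65.2 to 80.9. Sfpq (chr4:127020716-127051101), which encodes a nuclear RNA binding and splicing factor, had 6 regions with scores of 837, 1271, 1100, 1113, 490 and 596, all above the 57th percentile for their width. At Syf2 the 3 regions scored 725, 992 and 911. Mtfr1l, a gene linked to mitochondrial fission, had 4 regions with scores of 1028, 1011, 1260 and 761. Not every gene of this group was high throughout. At Rpa2, which encodes a subunit of the single-strand DNA binding protein RPA, 3 regions lay above the 77th percentile and 2, with scores of 288 and 241, below the 12th. At Zbtb8b the highest scoring member of any width, 3218 at chr4:129445541-129446480, lay within the same gene as a region of 1010 bp that scored 262. The others were the nucleolar GTPase gene Gnl2, the Mediator subunit gene Med18, Smap2, the Rag GTPase gene Rragc, the ubiquitin ligase gene Ubr4 with 18 regions, Tmem39b and the Eyes absent family gene Eya3.

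**Figure D5:**
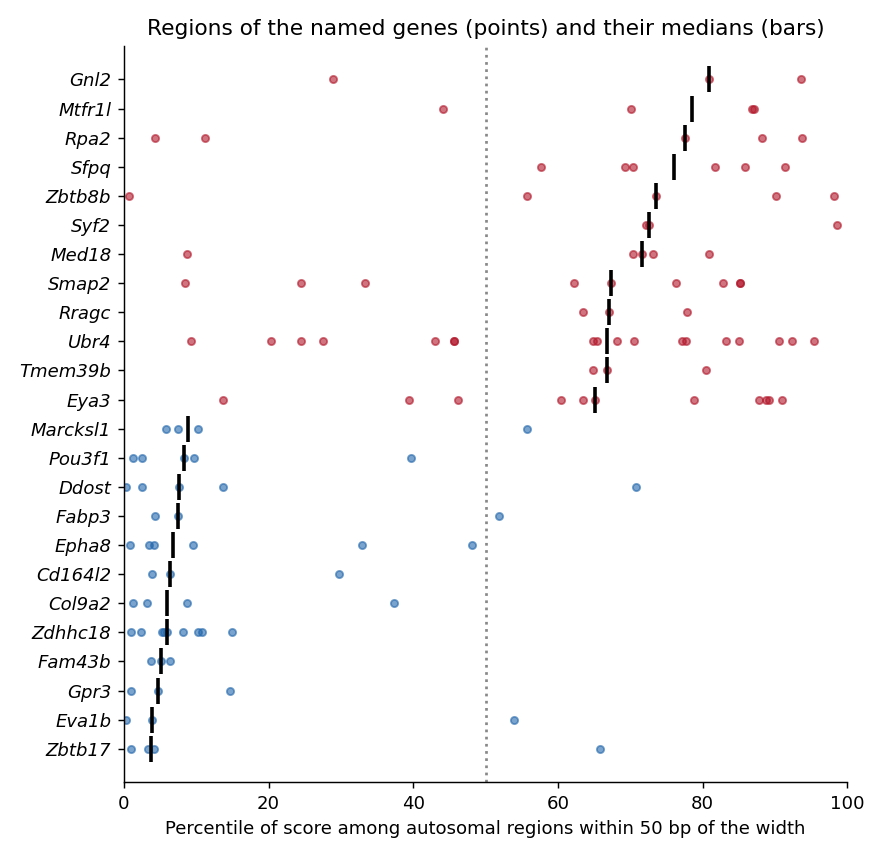
Percentile of each region's score among autosomal regions within 50 bp of its width (horizontal axis) for the 12 genes with the lowest and the 12 with the highest medians in the stretch (vertical axis); points are regions and black bars medians. Low genes run from medians of 3.77 (Zbtb17) to 8.87 (Marcksl1) and high genes from 65.2 (Eya3) to 80.9 (Gnl2), and points of the 2 groups overlap.

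Gene groups of the stretch are given by counts and medians, with no test. The values to read them against are those of all genes of the stretch: 90.2% had a region, 74.9% had at least 3, 79.9% of the latter had a median percentile below 50 and 20.1% one of 50 or more, and the region median was 482 at 400 to 800 bp. A RefSeq promoter window was touched in 218 of the 346 genes that have one (63.0%). Genes of RNA binding and splicing were the highest group by the score of their regions. All 15 had a region, 11 of the 14 with at least 3 regions had a median percentile above 50, beside 20.1% of all genes of the stretch, and the median score was 677.5 over their 42 regions of 400 to 800 bp. The Argonaute genes Ago1 and Ago3 had 10 and 8 regions with median percentiles of 44.8 and 63.0, and Khdrbs1 had 9 with 61.1. Neighbouring Argonaute genes are not independent.

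Of 14 developmental transcription factor and signalling genes 13 had medians below 50, beside 79.9% of all genes of the stretch, and the median score was 382 over 42 regions of 400 to 800 bp. Pax7, a muscle and neural crest regulator gene, had 23 regions, of which 14 lay under the 25th percentile, beside 36.9% of all members. Runx3 (chr4:135120645-135177990), a Runt family factor gene, had 18 with 13 under it, beside the same 36.9%. Bmp8a, a growth factor gene, had 14 regions with a median percentile of 37.5, whereas the 11 regions of Eya3 had 65.2, the exception. All 15 neuronal and synaptic genes had medians below 50, beside the same 79.9%, with a median score of 427 over 75 regions of 400 to 800 bp. Igsf21, a synaptic adhesion gene, had 49 regions with a median percentile of 25.3, the kainate receptor gene Grik3 had 43 with 29.0, Csmd2 had 38 with 47.0 and the postsynaptic scaffold gene Dlgap3 had 25 with 35.8. A promoter window was touched in 5 of the 12 neuronal genes that have one, in 10 of 13 developmental genes and in 8 of 11 RNA binding genes, beside 63.0% of all genes of the stretch.

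All 4 Eph receptor genes, whose products bind ephrins on neighbouring cells, had medians below 50, beside 79.9% of all genes of the stretch. Ephb2 had 49 regions with scores from 122 to 1440 and a median percentile of 30.4, Epha2 19 with 20.8, Epha10 10 with 13.8 and Epha8 6 with 6.84. The range within Ephb2 was wider than the differences between the 4 genes. All 5 peptidylarginine deiminase genes, which encode enzymes that turn arginine into citrulline, had a region, and Padi1, Padi4, Padi2 and Padi3 had median percentiles of 26.2, 17.4, 34.0 and 13.5 over 13, 9, 8 and 7 regions. All 11 leukocyte genes had a region, and 5 of them had at least 3, beside 74.9% of all genes of the stretch, led by the cannabinoid receptor gene Cnr2 with 13 and the kinase gene Fgr with 9, at median percentiles of 37.1 and 16.6, followed by Laptm5 (8, 17.2) and Lck (6, 25.6).

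Among 10 genes whose human counterparts on the short arm of chromosome 1 have been named as tumour suppressors or growth regulators, 7 had medians below 50, beside 79.9% of all genes of the stretch. Beside Epha2 and Runx3, the retinoblastoma-interacting zinc finger gene Prdm2 had 16 regions with a median percentile of 53.0 and the E2F factor gene E2f2 had 14 with 16.3. Of the 14 chromatin and transcription regulator genes, 13 had at least 3 regions and 8 of these had medians below 50, beside 79.9%. Prdm2, Kdm1a and Arid1a are on both lists, and with so few genes nothing is read from either share. Phc2, a Polycomb subunit gene, had 26 regions at 27.1, Prdm2 16 at 53.0, Spen, a corepressor gene, 13 at 37.5, and Kdm1a 12 at 58.5. Arid1a (chr4:133679008-133756769) had 7 regions with scores from 383 to 943 and a median percentile of 34.0. Of 11 mitochondrial and housekeeping genes with at least 3 regions 6 lay below 50, beside the same 79.9%, with Eif4g3 (22 regions, 57.1) and the actin capping gene Capzb (20, 24.97) as the members with the most regions.

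The smaller families gave few values. Of the connexin genes, which encode gap junction proteins, Gja4 had 4 regions with a median percentile of 55.2 and Gjb5 had 3 with 15.8. Of the secreted phospholipase A2 genes Pla2g5 had 15 regions at a median percentile of 33.0 and Pla2g2c had 4 at 13.5, while Pla2g2f and Pla2g2e had 2 each. Of 23 PRAME family genes in the stretch (symbols with Pramel or Oog), expressed mainly in the germ line, 6 had a region (26.1%), beside 90.2% of all genes of the stretch. Of the 10 on the list used here 5 had one, led by Pramel12 with 4 regions and Pramel13 with 3, while Oog2, Oog3, Oog4, Pramel4 and Pramel14 had none. These genes are closely similar copies, and the sources used here do not say how reads that match several copies were handled, so the number of their regions is uncertain.

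Single regions with very low and very high scores could lie within 1 Mb of each other. Among the lowest members of 400 to 800 bp were a region of chr4:141017641-141018160 inside Crocc (141), a centrosomal linker gene, and one of chr4:141271661-141272130 near Arhgef19 (150). The lowest of all scored 136 at chr4:120230331-120230740 in intergenic DNA nearest to Foxo6, and another scored 146 inside Klhdc7a. Of the 5 highest, the region inside Spen at chr4:141525821-141526390 scored 2023, on the same 1 Mb step as the low ones at Crocc and Arhgef19. The others were 2237 at chr4:128628951-128629680, nearest to Tlr12, 2052 nearest to Col9a2, 1927 nearest to Otud3 and 1842 inside Hnrnpr, an RNA binding protein gene. Col9a2 itself was among the 12 lowest genes, with scores of 230, 663, 233 and 217.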

How the data were processed

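DNA of 8 lines was captured with an Agilent SureSelect kit for mouse methylation sequencing, per the labels' protocols. The submitters' processing notes name Novoalign 3.7.1, Picard and the build mm10. The authors deposited 1 list of regions with a score (a whole number per region, for all lines together), and how it was made is not stated in the sources used here. The start and end positions are deposited in base pairs and are printed counting from 1.

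Members and gene lists were chosen with earlier results of these data known. Analyses used Python 3.11.15 with pandas 2.3.3 and numpy 2.4.6, and were tested on simulated data. Genes and promoter windows (250 bases before to 50 after a transcript start) came from RefSeq GRCm38.p6. The promoter table is not complete. Consecutive stretches of 25 Mb were counted from position 0 (from 20 Mb on chromosome 4, so that the chosen stretch was among them). Leftover chromosome ends shorter than 25 Mb were not used, and genes were assigned by midpoint. Of 117 listed genes, those outside the stretch or listed as pseudogenes were left out, and some PRAME genes matched through synonyms. Genes named were the 12 lowest and 12 highest by median percentile with at least 3 regions (no Gm, Rik or LOC symbols), from every list the 4 members with the most regions, and the 5 lowest and 5 highest regions of 400 to 800 bp. Arid1a and other single genes outside that rule were named after their values were seen, and some genes that the rule names are not reported here. Depth per line is unknown. Wilson intervals use scipy 1.17.1.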

Additional observations from a re-analysis of the deposited data

How the results depend on the processing

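The ratio of the stretch's median score to that of the compared DNA was below 1 in all 24 alternatives for the score, from 0.722 to 0.929. The stretch was chosen on this score and the alternatives reuse the same scores. These values therefore describe the size of the difference and are no separate support for it. The share of members below the compared median, 72.5% against the rest of the autosomes, was 57.4% at widths of 200 to 400 bp, 65.7% at all widths, 61.2% within 1000 bp of a gene end, and 75.02% with the upper and lower 5% of scores left out. For regions on a promoter window it was 59.3%, from only 86 members, with a Wilson interval of 48.7 to 69.1 that includes 50%. Against stretches of similar gene number, 65.6% became 68.5% with a gene number within 10%, 69.3% within 50%, 68.4% with all annotated genes and 68.5% with stretches offset by 10 Mb. In these and with regions per Mb matched, 0 of the matched stretches had a lower median score. The split by promoter windows and the rest without chromosome 4 were chosen after seeing the data. No paired analysis was possible because the list has no value per line, and for the same reason no line could be left out. With no counts, what depth limits is unknown.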

Other observations

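Regions were missing from parts of the stretch. The longest gap between neighbouring members ran for 399260 bp (chr4:122209401-122608660), and 4 of the 5 longest gaps lay between 121484041 and 122608660. The exception was a gap of 127810 bp at chr4:130391851-130519660.

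The 5 widest members, from 2490 to 3030 bp, included regions inside Eif4g3 (score 817), Pigv (978) and Runx3 (643). The region in Runx3, chr4:135149421-135152080, lay at the 6.58 percentile for its width.

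Of 19 microRNA hairpins annotated in the stretch, 5 were touched by a region: Mir692-2 (score 520), Mir8119 (392), Mir5122 (117), Mir7020 (688) and Mir2139 (395). Mir30c-1 and Mir30e were not. The share of hairpins touched on the rest of the autosomes was not computed, so nothing is read from this count.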
